A study of Rattus norvegicus with 30 samples.

Results

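The 10 genes described here are CAR (Nr1i3), PXR (Nr1i2) and the nuclear receptors and cofactors that share their DNA sites, their partners or their target genes in liver, namely Rxra, Rxrb, Hnf4a, Ppara, Nr1h3, Nr5a2, Ncoa1 and Foxa2. They were taken by name, though with earlier results of these data known. Every non-control probe whose transcript maps to one of these symbols was used. Of 30367 probes on the array, 18004 matched 15170 genes, and 11 of these belong to 9 of the 10 members. Nr1i3 and Nr5a2 have 2 probes each, and Ncoa1, the steroid receptor coactivator SRC-1, had no matched probe and is not analysed here.

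Liver RNA of male animals was labelled in 1 colour and hybridised to 30 rat arrays. The animals were outbred Crl:CD(SD) rats, written SD rats from here on (4 on control diet at 0 ppm, 4 on 1000 ppm phenobarbital, PB), rats labelled CAR KO (4 and 4), and mice whose livers carry transplanted rat hepatocytes, called chimeric mice here (7 and 7). All were fed for 7 days, and the labels name the arrays biological replicates, with no age, no donor stock and no share of rat cells in the chimeric livers. In the chimeric livers the other cell types are the host's own mouse cells. How much signal the rat probes take from mouse RNA was not tested. The labels do not say how the CAR KO allele was made.

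CAR and PXR are the xenosensors of the hepatocyte. CAR waits in the cytoplasm in a chaperone complex and moves to the nucleus when phenobarbital blocks epidermal growth factor signalling, whereas PXR is switched on by ligands that bind it directly. In the nucleus each pairs with a retinoid X receptor (RXR-alpha from Rxra, RXR-beta from Rxrb) and turns on genes of drug oxidation, conjugation and export. HNF4-alpha, LRH-1 (Nr5a2) and FOXA2 keep hepatocyte genes active, and PPAR-alpha and LXR-alpha (Nr1h3) sense fatty acids and oxysterols, also as partners of RXR.

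The promoters of the 4 members on which the results below turn are printed to show how differently these genes begin. They are the 250 bases before a RefSeq transcript start of each gene, on the gene's own strand, on GRCr8. That start need not be the outer end of the gene. The Rxrb window lies wholly within the annotated span of its gene, and the Nr5a2 window in part. Capitals mark matches to the motifs searched on both strands, which were AGGTCA (the nuclear receptor core), 2 such cores spaced as DR1 (AGGTCANAGGTCA) or DR4 (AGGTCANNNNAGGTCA), GGGCGG (GC box), CCAAT and AGAACA (glucocorticoid receptor core). A DR1 or DR4 match also holds 2 AGGTCA matches.
Nr1i2, chr11:75965467-75965716, plus strand: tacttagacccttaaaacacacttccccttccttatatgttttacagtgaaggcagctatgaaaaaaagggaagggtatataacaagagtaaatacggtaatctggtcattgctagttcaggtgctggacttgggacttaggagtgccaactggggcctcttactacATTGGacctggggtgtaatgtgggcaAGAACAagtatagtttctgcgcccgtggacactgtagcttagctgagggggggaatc
Rxra, chr3:31387642-31387891, plus strand: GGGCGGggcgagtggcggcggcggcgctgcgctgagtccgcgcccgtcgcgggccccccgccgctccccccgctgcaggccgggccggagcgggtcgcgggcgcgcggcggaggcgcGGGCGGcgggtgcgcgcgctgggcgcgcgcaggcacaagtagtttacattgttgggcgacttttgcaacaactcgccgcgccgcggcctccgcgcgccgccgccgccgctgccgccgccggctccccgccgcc
Rxrb, chr20:4824660-4824909, minus strand: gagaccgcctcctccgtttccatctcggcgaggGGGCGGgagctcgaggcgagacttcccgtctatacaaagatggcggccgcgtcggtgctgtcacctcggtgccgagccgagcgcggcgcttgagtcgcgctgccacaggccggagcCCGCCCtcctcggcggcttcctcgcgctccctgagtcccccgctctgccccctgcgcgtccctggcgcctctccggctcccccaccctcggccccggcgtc
Nr5a2, chr13:50984939-50985188, minus strand: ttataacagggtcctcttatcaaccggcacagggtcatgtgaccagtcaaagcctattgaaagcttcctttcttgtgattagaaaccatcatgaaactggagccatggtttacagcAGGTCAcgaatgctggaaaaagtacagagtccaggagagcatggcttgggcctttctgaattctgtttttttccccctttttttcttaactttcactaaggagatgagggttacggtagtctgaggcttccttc

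The promoters of Rxra and Rxrb are rich in G and C, at 82.8% and 74% of bases, and each holds 2 GC boxes, a motif found in 30.5% of all 33469 promoters of this length. That of Nr1i2 is 46% G and C, with a CCAAT box on the opposite strand (34% of all promoters) and an AGAACA (17.5%). The Nr5a2 promoter, 44.4% G and C, holds the only AGGTCA among the members, a motif that 14.1% of all promoters hold. It lies 134 bases before the transcript start used, within the annotated span of the gene. No member's promoter held a DR1 or DR4, which occur in 0.0508% and 0.00299% of promoters. The Nr1i3 promoter, 55.6% G and C, held none of the motifs searched. These matches describe the letters only.

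A level below is log2 of a probe's signal minus the 75th percentile of its array on the same scale, so 0 is a brightness that most probes do not reach. All 11 member probes were well above background on all 30 arrays. Levels of different probes are not set against each other. Differences are log2 differences with their standard error (SE), and each adjusted p comes from limma and was corrected over every probe tested in that comparison (Benjamini-Hochberg).

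Some facts of the array set bear on everything that follows. The 75th percentile signal ran from 197.6 to 318 on chimeric arrays and from 413.8 to 568.6 on rat arrays, and no non-control spot was saturated. The SD and CAR KO arrays were on a slide each, so model and slide cannot be told apart, and within each slide control and PB arrays lay in different rows. All 7 chimeric controls and PB replicate 1 were on 1 slide and PB replicates 2 to 7 on another, so PB and slide nearly coincide there. With slide as a block, the PB difference in chimeric mice therefore compares 1 PB mouse, replicate 1, with the 7 controls on its slide, and that mouse is assumed to vary like the others. A call lost in that fit says little about the size of a difference, so its value is given beside it. The 6 hepatocyte markers (Alb, Ttr, Apoa1, Tf, Fgb, Serpina1) were above background on all arrays of every group, with a summed signal of 2715 to 3051 array units (1 unit is the 75th percentile) in chimeric controls and 2802 to 2994 in SD controls.

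Nr1i3 encodes CAR. Its brighter probe, called the first here, read 0.91, 1.88, 0.76 and 1.14 in the 4 SD controls and 0.31, 1.03, 0.62 and 0.24 in the 4 SD rats on PB. Most PB rats were lower than most controls, but the highest PB rat was above 2 of the controls. The difference was -0.63 ± 0.30 (SE), with an adjusted p of 0.270. The second probe gave -0.66 ± 0.32, with an adjusted p of 0.278.

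In the CAR KO rats the first Nr1i3 probe read 1.13, 1.30, 0.69 and 1.35 on control diet and 0.50, -0.21, 1.04 and 1.15 on PB. The groups overlapped, and 1 PB rat stood far under the others. The difference was -0.50 ± 0.30, with an adjusted p of 0.452.

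The check of the labels is the level of Nr1i3 on control diet. CAR KO rats differed from SD rats by -0.05 ± 0.30 at the first probe (adjusted p = 0.908) and by 0.09 ± 0.33 at the second (adjusted p = 0.852). Both probes were well above background in all 8 CAR KO rats. The labels do not say where these probes lie relative to the altered part of Nr1i3, so their signal neither bears out nor goes against the knockout label, and "CAR KO" below names the label.

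In chimeric controls the first Nr1i3 probe ran from 0.98 to 2.02 with a median of 1.32, and on PB from 0.85 to 1.86 with a median of 1.16. The ranges lay almost on top of each other. The difference was -0.14 ± 0.18, with an adjusted p of 0.572, and chimeric controls differed from SD controls by 0.24 ± 0.25 (adjusted p = 0.391). By mean level the 6 groups ran from chimeric control through chimeric PB, SD control, CAR KO control and CAR KO PB to SD PB, and every neighbour in that order overlapped the next. The second probe put the groups in another order, with CAR KO control highest and chimeric PB lowest, and the correlation of the 2 probes was 0.55 over the 30 arrays and 0.87 after each group's mean was taken off.

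Nr1i2 encodes PXR. It read 4.95, 5.28, 4.75 and 5.10 in the 4 SD controls and 4.50, 4.62, 4.63 and 4.75 in the 4 SD rats on PB. Only the brightest PB rat and the dimmest control touched. Nr1i2 fell by 0.39 ± 0.096 on PB, 1.31-fold, with an adjusted p of 0.0364. It was the only member called in SD rats, where 4.05% of all probes were called.

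In CAR KO rats Nr1i2 read 4.69, 4.82, 4.88 and 4.81 on control diet and 4.57, 4.41, 4.58 and 4.49 on PB. All 4 PB rats were below all 4 controls, which was also so of 6.87% of all probes in this comparison. The difference was -0.29 ± 0.097, with an adjusted p of 0.179, so it did not pass the test. No member was called in CAR KO rats, where 0.168% of all probes were called. At an unadjusted p under 0.05 in limma Nr1i2 alone of the 11 member probes passed, beside 3097 of all 19634 probes tested.

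The PB differences of Nr1i2 in SD and CAR KO rats were compared directly. They differed by 0.10 ± 0.14 (adjusted p = 0.811), less than its error. No member's PB difference was called as unlike between the 2 rat models, where 0.476% of all probes were called. At an unadjusted limma p under 0.05 there were 0 of the 11 member probes, beside 2554 of all 19939 probes tested. On control diet Nr1i2 was -0.22 ± 0.097 in CAR KO against SD rats (adjusted p = 0.100).

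The SD call for Nr1i2 rests on few animals. It was lost without SD control replicate 1, 2 or 4 or SD PB replicate 1, 2 or 3, where the adjusted p lay between 0.0594 and 0.0934, and the difference itself ran from -0.48 to -0.31 over all the alternatives tried. With the 8 SD arrays alone the adjusted p was 0.152, with all 30 arrays in 1 fit 0.647, and with replicate numbers as a block 0.0625.

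In chimeric mice Nr1i2 ran from 4.80 to 5.78 with a median of 5.50 in controls, and from 4.96 to 6.26 with a median of 5.60 on PB. The groups overlapped over most of their range. The difference was 0.20 ± 0.19 (adjusted p = 0.413). It differed from the SD response by 0.59 ± 0.25, with an adjusted p of 0.0964. Between chimeric and SD controls the Nr1i2 difference was 0.38 ± 0.17, which also missed the threshold (adjusted p = 0.0512), and its direction depended on the scaling. It was -0.23 ± 0.14 with quantile normalization (adjusted p = 0.154) and 0.76 ± 0.20 with median centring (adjusted p = 0.00137). It was called with the series matrix values (adjusted p = 0.0497), and without chimeric control 1, 3 or 5 or SD control 2, where the adjusted p lay between 0.0104 and 0.0446.

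**Figure D1:**
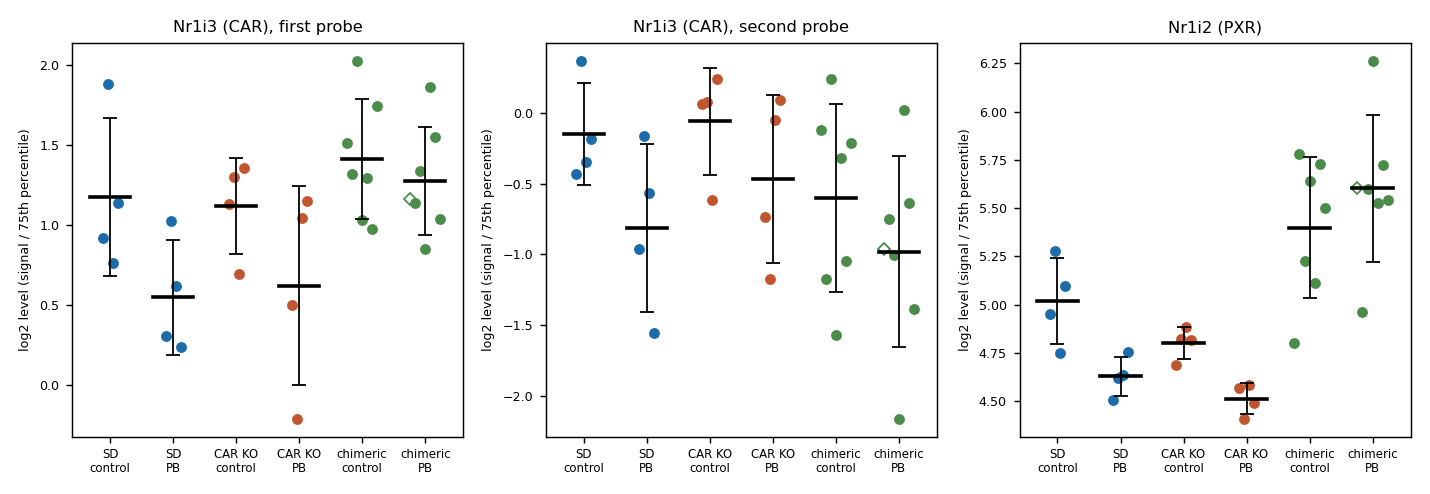
Levels of both Nr1i3 probes and of Nr1i2 on every array, as log2 signal relative to the array's 75th percentile (y axis), by group (x axis). Points are arrays, black lines are group means with SD bars, and the open diamond is chimeric PB replicate 1, the PB array on the controls' slide. All 4 CAR KO rats on PB lie below the 4 CAR KO controls for Nr1i2, whereas the Nr1i3 groups overlap.

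Rxra encodes RXR-alpha, the main partner of CAR and PXR in liver. It read -0.14, -0.28, -0.23 and -0.25 in SD controls and -0.73, -0.46, -0.81 and -0.69 in CAR KO controls. The groups did not overlap, and the SD controls lay within a narrow band. Rxra was lower in CAR KO controls, with a difference of -0.45 ± 0.13 (1.36-fold) and an adjusted p of 0.0180.

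Rxrb encodes RXR-beta. It read -0.32, -0.30, -0.23 and -0.22 in SD controls and -0.67, -0.52, -0.53 and -0.64 in CAR KO controls. Again every CAR KO rat was below every SD rat. The difference was -0.32 ± 0.065, 1.25-fold, with an adjusted p of 0.00189.

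These were the 2 members called between the rat models on control diet, both lower, where 33.6% of all probes were called and the groups of 20.4% did not overlap in this direction. The median over all probes was -0.09 in this comparison. The 2 models were on separate slides, so slide and model cannot be told apart. The 6 hepatocyte markers summed to 2467 to 2621 array units in CAR KO controls, below all SD controls (2802 to 2994), and the 6 stellate cell and fibroblast markers to 4.38 to 4.94 against 5.01 to 6.08. All 12 of these genes were above background on every array of both groups, and their part in the result was not tested. With all 30 arrays in 1 fit Rxrb was no longer called (adjusted p = 0.301), and Rxra was.

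PB differences of both RXR genes did not pass the test in any model. Rxra differed by -0.22 ± 0.13 in SD rats (adjusted p = 0.372) and by -0.03 ± 0.13 in CAR KO rats (adjusted p = 0.944). Rxrb differed by -0.12 ± 0.065 (adjusted p = 0.343) and by 0.05 ± 0.065 (adjusted p = 0.745). In chimeric mice the differences were 0.17 ± 0.11 for Rxra (adjusted p = 0.238) and 0.19 ± 0.19 for Rxrb (adjusted p = 0.434). Both turned with slide as a block, to -0.20 ± 0.19 for Rxra (adjusted p = 0.821) and -0.14 ± 0.37 for Rxrb (adjusted p = 0.970).

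On control diet Rxra ran from -1.16 to -0.72 with a median of -0.90 in chimeric mice. The whole range lay under the 4 SD controls. The difference was -0.72 ± 0.12, 1.65-fold, with an adjusted p of 9.16e-06. Rxrb ran from -1.38 to -0.40 with a median of -0.46 and also lay wholly under SD controls, with a difference of -0.41 ± 0.16 (adjusted p = 0.0280). Chimeric controls 2 and 4 carried much of the Rxrb difference, with -1.20 and -1.38 against -0.40 to -0.47 in the other 5. These arrays also had the lowest 75th percentiles of the chimeric controls, 235.3 and 216.0, and the part of array brightness was not tested. Without control 2 or control 4 the adjusted p was 0.0682 or 0.0697, and it was 0.0574 or 0.0597 without SD control 3 or 4. Under median centring the Rxrb difference was -0.03 ± 0.17 (adjusted p = 0.888).

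Hnf4a encodes HNF4-alpha, which holds a large share of hepatocyte genes active. In SD controls it read -1.48, -0.89, -1.45 and -1.21, and on PB -1.40, -1.18, -1.28 and -1.25. The PB values sat inside the range of the controls. The PB difference was -0.02 ± 0.19 in SD rats (adjusted p = 0.968) and 0.06 ± 0.19 in CAR KO rats (adjusted p = 0.926).

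In chimeric mice Hnf4a ran from -2.51 to -1.53 with a median of -1.95 in controls, and from -1.88 to -1.25 with a median of -1.47 on PB. The PB mice were mostly higher, but the groups overlapped. The difference, 0.44 ± 0.17, just missed the threshold (adjusted p = 0.0512), and it was 0.11 ± 0.34 with slide as a block. It was called in 11 of 24 alternatives, among them replicate numbers as a block (adjusted p = 0.0315 in limma). All 7 chimeric controls were below all 4 SD controls, with a difference of -0.73 ± 0.19 and an adjusted p of 0.00141. It was -0.35 ± 0.19 under median centring (adjusted p = 0.106), a scaling that moved the median over all probes from -0.02 to 0.36 in this comparison.

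Nr5a2 encodes LRH-1, a receptor that drives genes of bile acid and cholesterol handling. Its first probe read 0.61, 0.64, 0.17 and 0.47 in SD controls and 0.06, 0.57, 0.42 and 0.58 in SD rats on PB, and its second 0.32, 0.34, -0.17 and 0.39 and then -0.29, 0.31, 0.12 and 0.38. Controls and PB rats overlapped at both probes. The PB differences in the rat models lay between -0.17 ± 0.17 (second probe, CAR KO, adjusted p = 0.663) and -0.07 ± 0.15 (first probe, SD, adjusted p = 0.844).

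In chimeric mice the second Nr5a2 probe ran from -0.31 to 0.04 with a median of -0.20 in controls, and from -0.91 to -0.21 with a median of -0.65 on PB. Of the PB mice, 6 of 7 were below every control, and PB replicate 5 was within their range. The fall was -0.49 ± 0.11, 1.40-fold, with an adjusted p of 0.00309. The first probe gave -0.31 ± 0.13, which did not pass (adjusted p = 0.0742). The 2 probes had a correlation of 0.93 over the 30 arrays and 0.91 within groups.

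The second probe of Nr5a2 was the only member probe called for PB in chimeric mice, where 41.6% of all probes were called. PB replicate 1, the PB mouse on the controls' slide, read -0.79 at this probe, below the 7 controls, and -0.97 at the first probe, also below them. That mouse lay -0.64 from the mean of the 7 controls at the second probe and -0.56 at the first, both farther than the mean of the 7 PB mice. With slide as a block, which takes these 2 values as the differences, no member probe was called (first Nr5a2 probe -0.56 ± 0.26, adjusted p = 0.484), and 1.03% of all probes were. The summed macrophage markers (6 genes, 4 of them above background on all arrays of either chimeric group, Marco on none) ran from 8.66 to 11.4 in chimeric controls and from 4.22 to 6.97 on PB, and their part in the result was not tested.

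Between models Nr5a2 differed in the same direction at both probes. On control diet the first probe ran from -0.58 to -0.18 with a median of -0.47 in chimeric mice, all below the 4 SD controls. The difference was -0.89 ± 0.15, 1.85-fold, with an adjusted p of 5.45e-06. The second probe gave -0.37 ± 0.14 (adjusted p = 0.0211), with overlap through SD control 3. At the first probe all 14 chimeric mice lay below all 16 rats. In the order of group means this was the only place, for any member, where neighbouring groups did not overlap. The share of all probes that part these 14 and 16 animals was not computed. Between chimeric and SD controls alone, 29.3% of all probes did not overlap in this direction.

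Foxa2 encodes FOXA2, a factor that opens chromatin at liver genes. It read 1.39, 1.23, 2.51 and 1.71 in SD controls and 1.12, 2.68, 2.64 and 1.58 on PB, and 2.57, 1.81, 1.53 and 2.76 in CAR KO controls and 2.33, 2.77, 3.20 and 2.91 on PB. It varied widely inside groups, and all of these overlapped. The differences were 0.29 ± 0.39 in SD rats (adjusted p = 0.723), 0.63 ± 0.39 in CAR KO rats (adjusted p = 0.458) and 0.45 ± 0.24 in chimeric mice (adjusted p = 0.142). In chimeric mice PB replicate 1 was the lowest of all 14 at 1.43, and with slide as a block, where this mouse alone stands for PB, the Foxa2 difference was -0.64 ± 0.36 (adjusted p = 0.588).

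Ppara encodes PPAR-alpha, the fatty acid sensor of liver. It read -0.43, -1.82, -2.18 and -1.77 in SD controls and -1.50, -1.85, -1.27 and -2.28 in SD rats on PB. SD control 1 stood apart from the other 3. The PB difference was -0.17 ± 0.34 in SD rats (adjusted p = 0.818) and -0.27 ± 0.34 in CAR KO rats (adjusted p = 0.743).

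Ppara was the member that was higher in chimeric mice. On control diet it ran from -1.42 to 0.01 with a median of -0.51, above 3 of the 4 SD controls and on both sides of SD control 1. The difference was 1.04 ± 0.31, 2.06-fold, with an adjusted p of 0.00365, and it was 1.41 ± 0.30 without SD control 1. On PB chimeric mice ran from -0.85 to 0.64 with a median of 0.22. The difference from chimeric controls, 0.61 ± 0.25, did not pass (adjusted p = 0.0614), and it was 0.29 ± 0.51 with slide as a block. It was called in 5 of 24 alternatives, among them replicate numbers as a block (adjusted p = 0.0187 in limma).

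Nr1h3 encodes LXR-alpha, the oxysterol sensor. It read 4.70, 4.50, 4.64 and 4.82 in SD controls, 4.52, 4.54, 4.73 and 4.69 on PB, and 4.57, 4.60, 4.56 and 4.61 in CAR KO controls. All 3 groups overlapped over a narrow range. PB differences were -0.04 ± 0.073 in SD rats (adjusted p = 0.781), 0.00 ± 0.073 in CAR KO rats (adjusted p = 0.989) and 0.23 ± 0.12 in chimeric mice (adjusted p = 0.123).

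Chimeric and SD controls differed in Nr1h3 by 0.01 ± 0.10 (adjusted p = 0.965). That value depends on the scaling, since it was -0.52 ± 0.072 under quantile normalization and 0.39 ± 0.14 under median centring, both past the test. No direction is therefore given for Nr1h3 between these models.

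**Figure D2:**
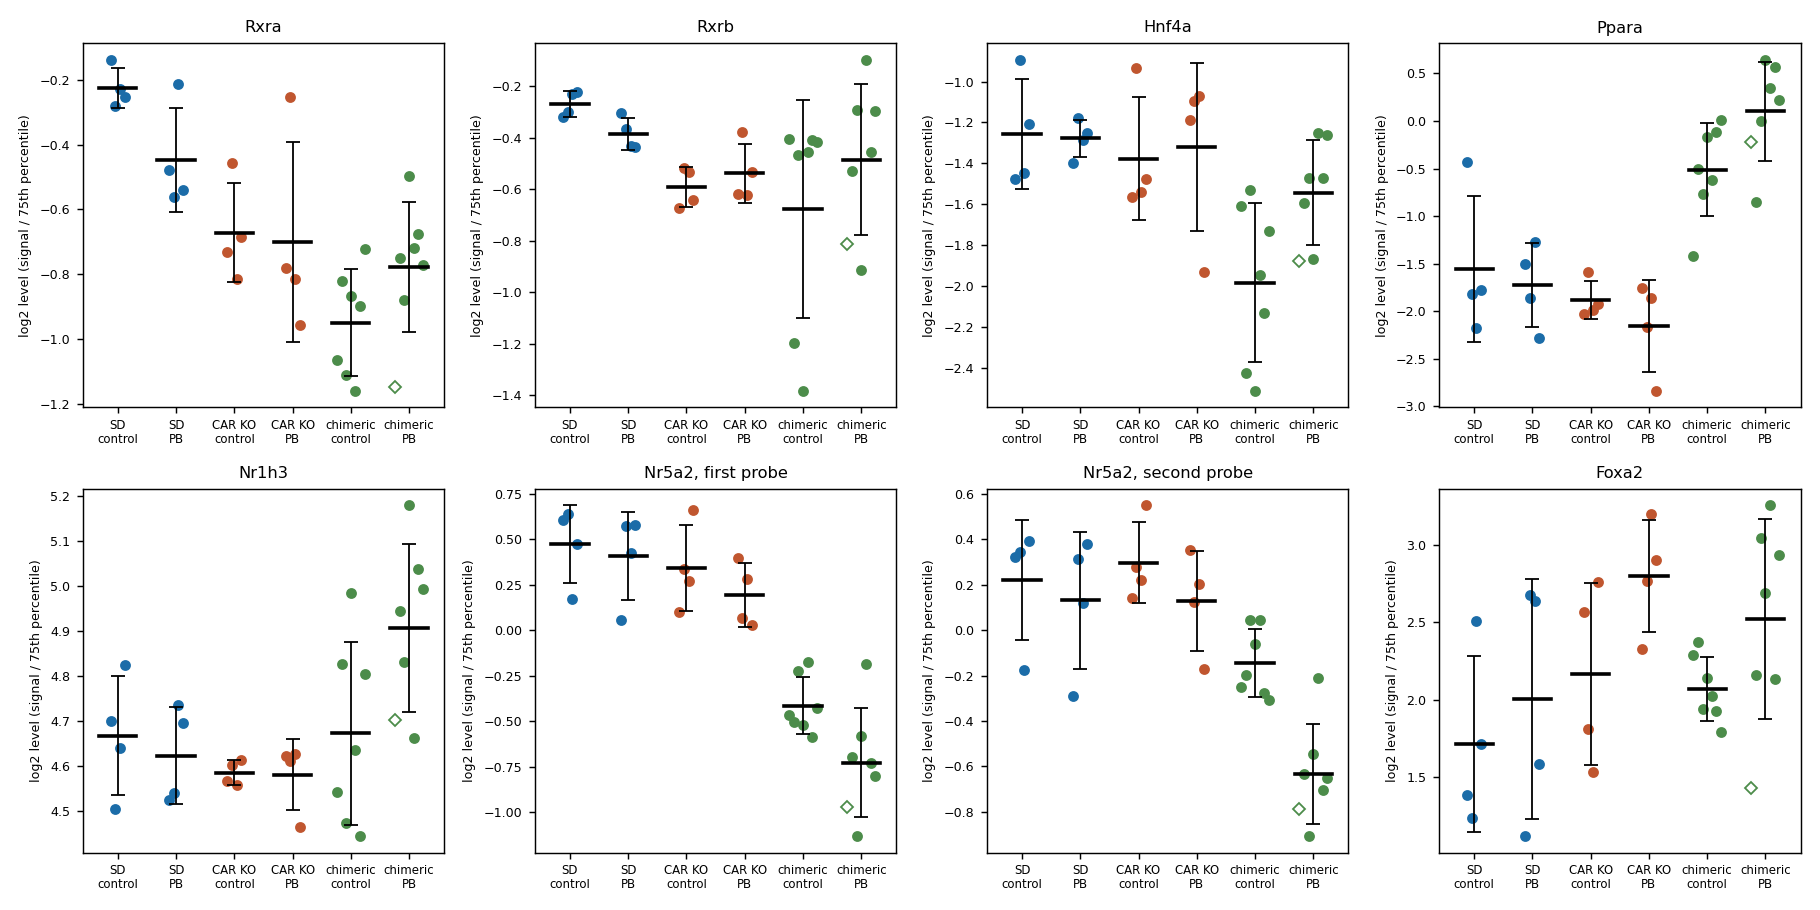
Levels of Rxra, Rxrb, Hnf4a, Ppara, Nr1h3, Nr5a2 (2 probes) and Foxa2 on every array, as log2 signal relative to the array's 75th percentile (y axis, scaled separately in each panel), by group (x axis). Points are arrays, black lines are group means with SD bars, and the open diamond is chimeric PB replicate 1. The 4 CAR KO controls lie below the 4 SD controls for Rxra and Rxrb, and chimeric mice lie below all rats at the first Nr5a2 probe. The share of all probes that part chimeric mice from all rats was not computed.

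Across the members, chimeric and SD controls differed at 6 of 11 probes, 1 higher (Ppara) and 5 lower (Rxra, Rxrb, Hnf4a and both of Nr5a2), beside 74.2% of all probes called. At 4 of the 5 lower probes the groups did not overlap, as at 29.3% of all probes in that direction. The count moved between 4 and 7 when single animals were left out. Median centring also called Nr1i2, the first Nr1i3 probe (0.62 ± 0.25) and Nr1h3 higher, whereas quantile normalization put that Nr1i3 probe at 0.01 ± 0.26 and Nr1h3 lower. The second Nr1i3 probe lay on the other side, at -0.45 ± 0.35 (adjusted p = 0.248). Median centring no longer called Rxrb, Hnf4a or the second Nr5a2 probe. Slide and model cannot be told apart here, and fewer cells of a type and less RNA per cell cannot be told apart in these bulk livers. Host cells are mouse cells, so a weaker match of mouse RNA to rat probes cannot be told apart from these either. Macrophage markers summed to 40.8 to 44.6 in SD controls against 8.66 to 11.4 in chimeric controls, and the 3 erythroid markers to 98.8 to 255.2 against 1.14 to 1.85 with Hbb above background on no chimeric array. Their part in these differences was not tested.

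The PB differences of chimeric mice and SD rats were called as unlike at none of the 11 member probes, where 17.6% of all probes were called. At an unadjusted limma p under 0.05 there were 2, Nr1i2 and Rxra, beside 5889 of all 19299 probes tested. This test and the comparison of the 2 models on control diet share the control arrays of both.

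**Figure D3:**
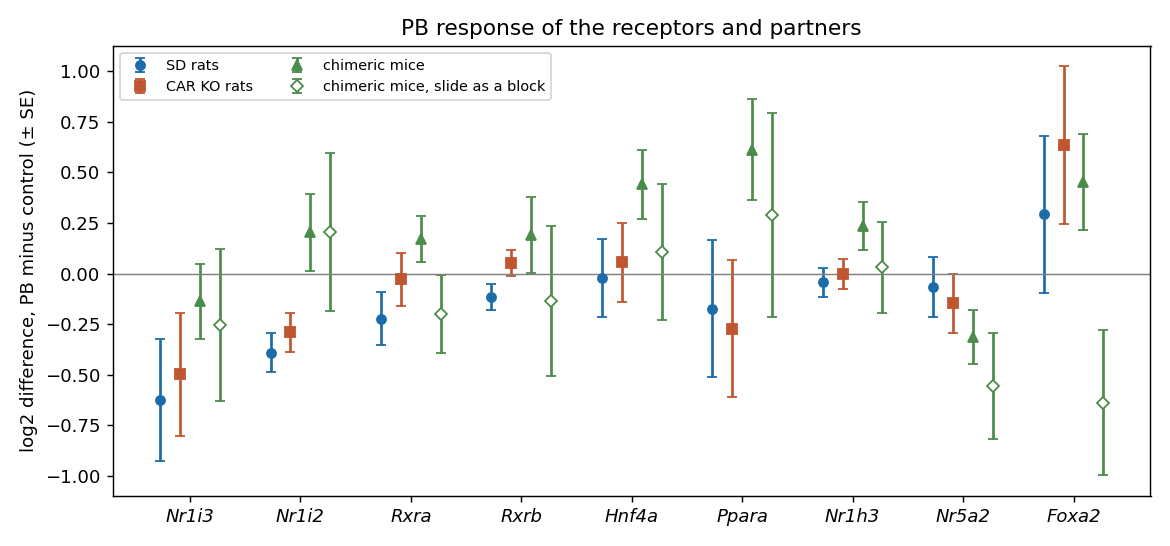
PB minus control difference on the log2 scale (y axis) for the first probe of each of the 9 genes (x axis) in SD rats, CAR KO rats and chimeric mice, and in chimeric mice with slide as a block, which compares PB replicate 1 with the 7 controls. Points are limma estimates and bars are standard errors. Nr1i2 in SD rats, at -0.39, is the only one of these differences past the test, and in chimeric mice the bars are wider with slide as a block.

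The target genes of CAR and PXR responded far more than the receptors. Of 17 tested in SD rats, 12 rose and none fell, with a median difference of 1.78 against -0.02 over all probes, of which 4.05% were called. Abcc3, an export pump of conjugates, was on no SD control well above background and rose at least 18.4-fold (adjusted p = 2.81e-06). Cyp2b21, a P450 oxidase above background on 1 of 4 SD controls and all 4 PB rats, was called higher (adjusted p = 2.81e-06), and no size is given because 3 controls were not well above background. Aldh1a1, a retinal dehydrogenase, rose by 4.37 ± 0.45 (adjusted p = 8.71e-05), and Cyp2b2, the P450 oxidase long used as the marker of phenobarbital, by 4.03 ± 0.14 (adjusted p = 9.01e-10).

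In CAR KO rats none of 15 tested targets was called, with a median of 0.33, where 0.168% of all probes were called. The test of the difference between the rat models called 9 of 17 targets, where 0.476% of all probes were called. All 9 had the smaller response in CAR KO rats, and the median difference was -1.74 against -0.01 over all probes. For Cyp2b2 it was -4.12 ± 0.20 (adjusted p = 1.06e-07) and for Aldh1a1 -3.70 ± 0.64 (adjusted p = 0.0183). Cyp2b21 and Abcc3 were called too, but were dim in CAR KO rats, so no size is given.

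In chimeric mice 15 of 17 targets rose and none fell, with a median of 1.91, where 41.6% of all probes were called. Cyp2b21 was on none of the 7 controls well above background and rose at least 60.7-fold (adjusted p = 3.59e-11). Cyp2b2 rose by 5.80 ± 0.26 (adjusted p = 1.89e-09), Abcc3 by 3.44 ± 0.36 (adjusted p = 1.12e-05) and Ces2c, a carboxylesterase, by 3.31 ± 0.27 (adjusted p = 9.66e-07). The list medians in SD rats and chimeric mice were the same with Abcc3 or Cyp2b21 set to its bound. With slide as a block, which compares PB replicate 1 with the 7 controls, the list median was 2.13. On control diet 10 targets were higher and 2 lower in chimeric mice than in SD rats, of 15 tested, where 74.2% of all probes were called, and 1 was higher and 3 lower in CAR KO than in SD rats, of 15, where 33.6% of all probes were.

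**Figure D4:**
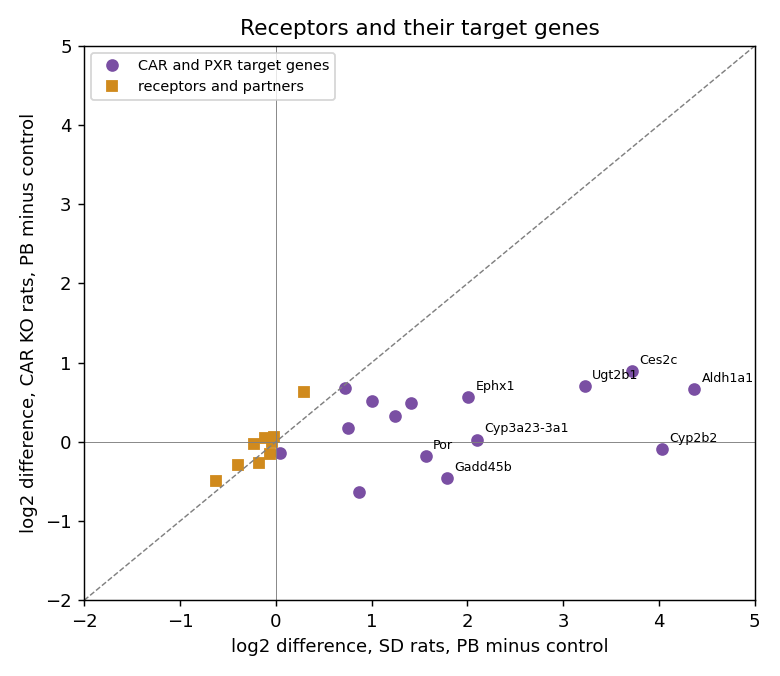
PB minus control difference on the log2 scale in SD rats (x axis) and in CAR KO rats (y axis) for the 15 target genes tested in both (circles, 8 named) and the 9 receptors and partners (squares, first probes). The dashed line is equality. Cyp2b2 stands at 4.03 in SD rats, whereas all receptors lie within 1 log2 unit of 0 on both axes.

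The next list holds targets of PPAR-alpha. Of 10 PPAR-alpha targets, 5 fell and none rose in SD rats on PB, with a list median of -0.55, where 4.05% of all probes were called, 1.68% lower. The hormone gene Fgf21 fell by 1.33 ± 0.33 (adjusted p = 0.0365), the carnitine palmitoyltransferase gene Cpt1a fell by 1.23 ± 0.27 (adjusted p = 0.0210) and the lipid droplet gene Plin2 fell by 0.59 ± 0.15 (adjusted p = 0.0398). Ppara itself was not called there. None of the 10 was called in CAR KO rats (median -0.21), where 0.168% of all probes were called. None was called in the difference between the rat models (median 0.30), where 0.476% were. In chimeric mice 2 rose and 1 fell, a smaller share than the 41.6% of all probes called there. Ehhadh of peroxisomal fatty acid oxidation rose by 0.44 ± 0.16, and Cyp4a1, a fatty acid hydroxylase, fell by 0.85 ± 0.25. These were 0.22 ± 0.31 and -1.68 ± 0.45 with slide as a block, where neither was called.

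Of 12 targets of HNF4-alpha and LRH-1, 1 was called in SD rats, where 4.05% of all probes were called. It was Apoc3, which fell by 0.29 ± 0.064 (adjusted p = 0.0198). None was called in CAR KO rats, where 0.168% of all probes were. In chimeric mice 3 fell and 1 rose, a smaller share than the 41.6% of all probes called there. Scarb1, the HDL receptor, fell by 0.84 ± 0.12, the clotting factor gene F9 fell by 0.68 ± 0.10 and Apoc3 fell by 0.43 ± 0.12, whereas Mttp, which loads lipid onto apolipoprotein B, rose by 0.57 ± 0.15. Of 6 LXR targets none was called in either rat model. In chimeric mice 2 were called, also a smaller share than 41.6%, and Mylip fell by 1.18 ± 0.15 and Abcg1 by 0.82 ± 0.24. With slide as a block, where none of these was called, the differences were -0.55 for Scarb1, -0.72 for F9, -0.81 for Apoc3 (adjusted p = 0.0868), 0.18 for Mttp, -0.69 for Mylip and -0.23 for Abcg1.

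Among 26 other nuclear receptors listed, none was called for PB in SD rats (20 tested) or CAR KO rats (23 tested). Of all probes, 4.05% and 0.168% were called there. In chimeric mice 4 of 19 fell and 1 rose, a smaller share than the 41.6% of all probes called there. The glucocorticoid receptor gene Nr3c1 fell by 1.12 ± 0.18 (adjusted p = 0.000211) and Rxrg, the third RXR gene, fell by 0.57 ± 0.17 (adjusted p = 0.0125), and Nr2c1 rose by 0.65 ± 0.13. Nr2f2, called too, fell by 0.54 ± 0.12. Nr1h4, the bile acid receptor FXR, differed by -0.20 ± 0.17 (adjusted p = 0.370). With slide as a block, where none was called, the differences were -0.45 for Nr3c1, -0.58 for Rxrg, 0.21 for Nr2c1 and -0.43 for Nr2f2.

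On control diet members of the same list were called about as often as all probes. In CAR KO against SD rats 2 of 23 were higher and 5 lower, where 33.6% of all probes were called, among them Nr3c1 (0.74 ± 0.14, adjusted p = 0.00133), Nr2c1 (-0.44 ± 0.11), Thra (-0.44 ± 0.13) and Nr2f6 (-0.43 ± 0.050, adjusted p = 1.95e-05). In chimeric mice against SD rats 12 of 21 were higher and 4 lower, where 74.2% of all probes were called, led by Ppard (-2.72 ± 0.50), Nr4a1 (1.79 ± 0.39), Nr2c1 (-1.61 ± 0.13) and Thra (-1.48 ± 0.31). Rxrg was 0.72 ± 0.16 higher in chimeric mice, the opposite side from Rxra and Rxrb.

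Coregulators were not called for PB in either rat model (11 tested), where 4.05% (SD) and 0.168% (CAR KO) of all probes were called. In chimeric mice 1 of 10 rose and 1 fell, against 41.6% of all probes called. The coactivator gene Ncoa2 fell by 0.55 ± 0.16, but it differed by 0.02 ± 0.26 with slide as a block. Nr0b2, which encodes the corepressor SHP, differed by -0.23 ± 0.57 in SD rats, -0.99 ± 0.57 in CAR KO rats and 0.29 ± 0.53 in chimeric mice, none past the test. Ppargc1a, the coactivator PGC-1-alpha, was well above background on 4 of 4 SD controls and on no SD rat on PB, at least 1.66-fold lower, but the difference was not called (adjusted p = 0.149).

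Of 13 other liver transcription factors none was called for PB in SD rats, where 4.05% of all probes were called, or in CAR KO rats, where 0.168% were. In chimeric mice 4 of 13 were called, all lower, where 41.6% of all probes were called, among them Gata6, which fell by 0.82 ± 0.23, and Foxa1, which fell by 0.45 ± 0.16. The genes of the CAR cytoplasmic complex and its kinase signals were not called in either rat model (13 tested), and in chimeric mice Mapk3 fell by 0.69 ± 0.14 while Prkaa1 rose by 0.52 ± 0.15 and Hsp90ab1 by 0.41 ± 0.14. The differences with slide as a block were -0.03 for Gata6, -0.54 for Foxa1, -0.33 for Mapk3, 0.48 for Prkaa1 and 0.15 for Hsp90ab1. In that comparison of 1 PB mouse with 7 controls no gene of any list but the CAR and PXR targets was called.

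Pairs of members varied together to very different degrees. After each group's mean was taken off, the 36 pairs of genes had a median correlation of 0.10 over the 30 arrays, from -0.58 to 0.66, and 22 were positive. The highest, Rxrb with Hnf4a, was 0.88 over the 14 chimeric arrays and 0.11 over the 16 rat arrays. Nr1i2 with Ppara gave 0.84 and -0.01. All pairs share their arrays, and within chimeric groups the correlation with the array's 75th percentile was -0.83 for Nr1h3, -0.71 for Rxra, 0.65 for Rxrb, 0.50 for Hnf4a, -0.57 for Nr1i2 and -0.44 for Ppara.

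The genes whose levels followed Nr1i3 and Nr1i2 most closely over the 16 rat arrays were found among 9226 named genes. For Nr1i3 they included Axin1 (r = 0.80) and Irs2 (r = 0.78). For Nr1i2 they were Trhde (r = 0.90), Zfp354a (r = 0.89) and Atoh8 (r = 0.87). These values describe likeness over arrays that include group differences.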

How the data were processed

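Per the file headers, Agilent Feature Extraction 10.7.3.1 made the deposited intensity values (processed signal, background-subtracted within an array, array design 028279). The authors' series matrix of log2 values equalled these minus about each array's 75th percentile (largest offset difference 0.0147, lowest correlation 0.9996) and served as an alternative. Here 4259 control spots were dropped, outlier spots set missing, spots averaged per probe, log2 taken and each array's 75th percentile subtracted. Probes were named by transcript accession through RefSeq (GRCr8, names only). Probes well above background on 75% of the arrays of a compared group were tested with limma 3.58.1 in R 4.3.3 (threshold 0.05), on the 16 rat arrays, the 14 chimeric arrays, or all 30 for chimeric against SD. The first probe of a gene is the one with the highest mean over rat arrays, and lists were counted by it. The members and lists were chosen with earlier results of these data known. All members are named; per list and comparison up to 4 called genes with the largest differences are named, Nr0b2, Ppargc1a, Rxrg and Nr1h4 in addition; Nr2f2 was named after its value was seen, and some genes that this rule selects are not reported here. "At least" folds divide the brighter group's mean by a floor, the mean over the dim arrays of the probe's own signal or the array's lowest signal well above background, whichever was larger. On simulated data limma recovered 77% of log2 changes of 1 in SD rats, 80% in CAR KO rats and 87% in chimeric mice. The simulated arrays had 1 spread per probe over all 6 groups and no slide effect. Only probes above background on all arrays were changed, and changes under 1 were not simulated. Precision is limited by how many arrays there are. Alternatives changed the background correction, scaling, filter, value source, arrays fitted, blocks and single arrays.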

Additional observations from a re-analysis of the deposited data

Results flagged for a closer look

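Over the 11 member probes and the 6 groups, 66 sets of values were screened for 1 array far from the others, and 4 were found, where chance alone gives about 1 in 20. Hnf4a in CAR KO control replicate 2 was the highest of its group at -0.93, against -1.56 to -1.48 in the other 3. Hnf4a in CAR KO PB replicate 4 was the lowest at -1.93, against -1.19 to -1.07. The same array was the lowest for Nr1h3 at 4.46, against 4.61 to 4.63. The second Nr5a2 probe in SD control replicate 3 was the lowest at -0.17, against 0.32 to 0.39.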

How the results depend on the processing

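Of the values recomputed for single members, 1 reversed past the test, Nr1h3 in chimeric against SD controls under quantile normalization, at -0.52 (adjusted p = 4.93e-07). For PB in SD rats, where 1 member probe was called, 0 were called with the SD arrays alone, with all 30 arrays or with the replicate block, and 0 to 1 without single animals. For PB in chimeric mice, also 1, the count was 3 with normexp, 2 with quantile normalization, 6 with median centring, 2 with probes above background on all arrays of a group, 5 with all 30 arrays, 3 with the replicate block, 0 with slide as a block and 1 to 3 without single animals. For CAR KO against SD controls (2 called) it was 1 with all 30 arrays and 2 to 3 without single animals. For the difference of PB responses between chimeric mice and SD rats (0 called) it was 1 with quantile normalization, 4 with median centring and 0 to 1 without single animals. It was 4 to 7 for chimeric against SD controls, and 0 to 0 for PB in CAR KO rats and for the difference between the rat models. The replicate block gave 0 for PB in CAR KO rats, 0 for the difference between the rat models, 2 for CAR KO against SD controls, 6 for chimeric against SD controls and 0 for the difference between chimeric and SD responses. Correlations of same-numbered arrays ran from -0.17 to 0.68. The highest were those of chimeric control and PB arrays 4, 5 and 6, each the best match of its number. Chimeric numbers 1, 2, 3 and 7 were not best matches, and every pair of rat groups lay below the values of 4, 5 and 6. These correlations do not decide whether replicate numbers pair the chimeric samples. Where not shown by fewer arrays, the cause of these changes was not tested.

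Over all probes, 771 were called for PB in SD rats, against 198 with the SD arrays alone, 223 with all 30 arrays, 3664 with no filter on dim probes and 429 to 729 without single animals. For PB in CAR KO rats 33 were called, against 19 with quantile normalization, 21 with the series matrix, 0 with the CAR KO arrays alone and 7 to 43 without single animals. For chimeric mice 6648 became 164 with slide as a block, and for the difference of chimeric and SD responses 3405 became 54, or 5146 with median centring. For the difference between the rat models 95 became 41 with all 30 arrays and 62 with the replicate block, and for CAR KO against SD controls 6659 became 2212 with all 30 arrays. Median centring moved the share of higher calls from 46% to 72.3% for PB in chimeric mice and from 49.9% to 66% for chimeric against SD controls, and normexp moved that for CAR KO against SD controls from 40.3% to 25.8%. The slide block compares 1 PB mouse with 7 controls, so its lost calls say little about size.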
